A study of Homo sapiens with 4 samples.

Results

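The 9 genes described here are the interferon ligand gene IFNL1, the cytosolic nucleic acid sensing genes DDX58, IFIH1 and TMEM173, the signal transducer genes STAT2 and STAT3, and the interferon regulatory factor genes IRF1, IRF7 and IRF9. They were picked by name, not by a threshold, with earlier results of these data known. The 4 count tables together list 18131 genes, of which 15636 are in every table. All 9 members were found in at least 1 table and 8 in every table. The cells were HCC1143, a triple-negative breast carcinoma line of human origin. They were held for 24 h or 72 h either in DMSO, the solvent, or in paclitaxel at 1 nM, a taxane that stabilises microtubules. Each of the 4 conditions was captured once by droplet single-cell RNA sequencing, so that 1 library stands for 1 group and no comparison has a replicate. No untreated culture and no second cell line is part of the comparisons.

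Type III interferons such as IFNL1 are secreted by epithelial cells and act on a receptor made of IFNLR1 and IL10RB. DDX58 (RIG-I) and IFIH1 (MDA5) are helicases that bind double-stranded RNA in the cytosol and signal through MAVS, whereas TMEM173 (STING) is the membrane adaptor that answers the cyclic dinucleotide made by the DNA sensor cGAS. STAT2 and IRF9 belong to the complex that carries the signal of type I and type III interferon receptors to the DNA, IRF7 and IRF1 are transcription factors that are themselves induced in such responses, and STAT3 serves mainly cytokines of the IL6 family.

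Kept cells numbered 1101 with DMSO and 776 with paclitaxel at 24 h, and 783 with DMSO and 520 with paclitaxel at 72 h, with 34850724 to 72024235 UMIs (unique molecular identifiers, each a captured RNA molecule) per library and medians of 54864 to 59670 UMIs per cell. Of the barcodes, 7 occurred in more than 1 library. All 8 breast epithelial markers were listed in every library, at summed levels of 2306 to 5234 counts per 1000000 UMIs (CPM). The 8 leukocyte markers summed to 7.41 CPM with DMSO and 9.04 with paclitaxel at 24 h, and to 8.92 and 24.96 CPM at 72 h, nearly all from CD68 and CD14. Of the leukocyte markers, PTPRC was listed only in paclitaxel at 72 h, at 0.29 CPM, and CD3D, CD3E and NKG7 in no table. Of the 5 plasmacytoid dendritic cell markers, 4 were listed in no table. MKI67 and TOP2A, which mark proliferating cells, summed to 342, 218, 180 and 115 CPM in the same order. The part of these markers in the results below was not tested, apart from the values given for cells without MKI67 and TOP2A transcripts.

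IFNL1 transcripts were listed in the paclitaxel 72 h table only. There 143 UMIs were counted, a level of 4.10 CPM (exact Poisson 95% interval 3.46 to 4.83), and they lay in 35 of 520 cells, or 6.73% (exact binomial 95% interval 4.73 to 9.24). All intervals given here cover counting error only. In the other 3 tables the gene is not listed. Every gene listed there had a UMI in at least 12 cells (DMSO 24 h), 8 cells (paclitaxel 24 h) or 8 cells (DMSO 72 h), so an unlisted gene is not a measured 0 and no fold change is given. The gene lies on chromosome 19 from 39296325 to 39298673 on the plus strand (GRCh38, GENCODE 29). The 9 other interferon ligand genes searched for (IFNL2, IFNL3, IFNB1, IFNA1, IFNA2, IFNE, IFNK, IFNW1 and IFNG) are in none of the 4 tables.

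The promoter of IFNL1 is shown because it holds a pair of interferon-stimulated response element (ISRE) type matches next to each other. This motif, GAAA, any 2 bases and GAAA again on either strand, was found in 3.57% of 35116 RefSeq promoters (250 bases before to 50 after the start), and in 24 of the 36 promoters (66.7%) available for a list of 43 interferon-induced genes used below. In IFNL1 the matches begin 214 and 208 bases before the RefSeq start and overlap. Capitals mark both, and the bases from chr19:39296157-39296324 (GRCh38.p14, plus strand, RefSeq) are those outside the GENCODE gene:
IFNL1: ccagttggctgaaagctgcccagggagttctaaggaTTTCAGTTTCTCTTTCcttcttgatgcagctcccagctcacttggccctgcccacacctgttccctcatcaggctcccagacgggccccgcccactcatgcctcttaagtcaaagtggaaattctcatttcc

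IFNL1 UMIs were spread very unevenly over cells. A single UMI was present in 28 of the 35 cells, and the other 7 cells held 52, 31, 16, 5, 4, 4 and 3 UMIs. The 3 highest cells held 69.2% of all IFNL1 UMIs but 0.76% of the UMIs of the library. Without the 5 highest cells the level was 1.02 CPM, against 4.10 CPM with them. Depth moved with detection: the 28 cells with 1 UMI had a median of 86104 UMIs of any gene, and the 485 cells without IFNL1 had 55911. After each cell was thinned to 20000 UMIs, which leaves out 39 shallower cells, 18 of 481 cells (3.74%, 2.23 to 5.85) still held IFNL1. All 4 libraries hold the same cell line, so none of them supplies a cell type that should lack the gene as a background share.

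The 7 cells with 3 or more IFNL1 UMIs had interferon-induced transcripts at 6081 to 16346 CPM of the cell (median 11942). The sum takes the 42 genes of the 43-gene list that were found in this library. The 28 cells with 1 IFNL1 UMI had a median of 5091 and the 485 cells without it a median of 4147. The ranges overlapped: cells without IFNL1 reached from 292 to 56969.6, and the 7 cells ranked between 8 and 146 of 520. The 7 cells ranked above all of these held no IFNL1 UMI.

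**Figure D1:**
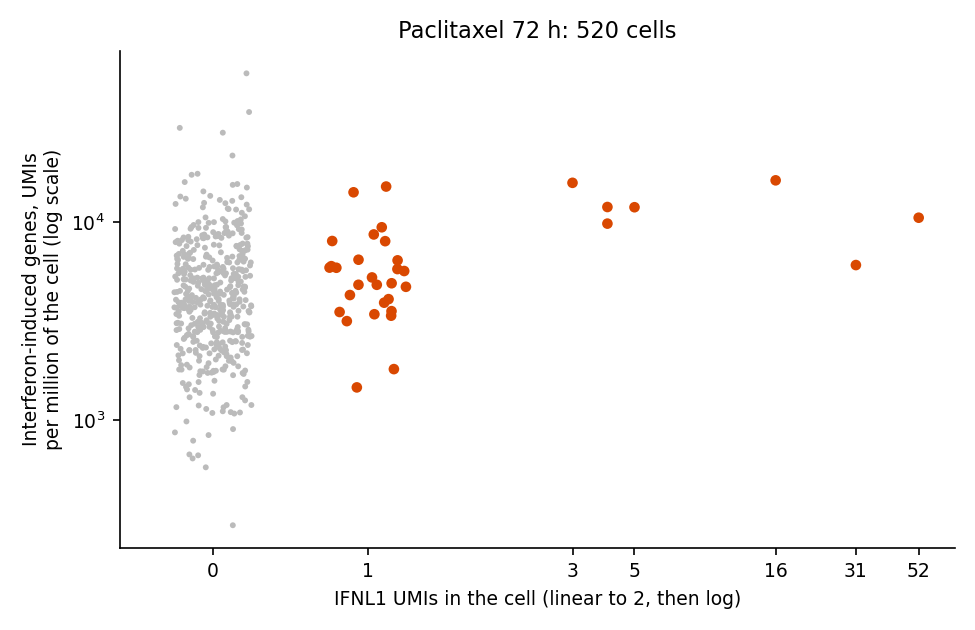
Each point is 1 of the 520 kept cells of the paclitaxel 72 h library. The x axis gives IFNL1 UMIs (linear to 2, then log, points at 0 and 1 spread sideways). The y axis gives summed UMIs of interferon-induced genes, the 42 of the 43 found in this library, as CPM of the cell (log scale). The 35 cells with an IFNL1 UMI are orange; the 7 cells with 3 or more lie between 6081 and 16346, within the range of the 485 grey cells without one.

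IFIH1, the MDA5 sensor gene, had the highest ratio of the 8 other members in the cells rich in IFNL1. The 7 cells held 39, 9, 38, 25, 20, 9 and 3 IFIH1 UMIs, listed from the highest to the lowest IFNL1 count, a summed level of 244 CPM against 44.8 CPM in the cells without IFNL1 (5.44-fold). IRF1 was at 126 against 31.2 CPM, but unevenly, with 20, 0, 29, 11, 0, 14 and 0 UMIs in the same cells. DDX58 was at 121 against 32.4 CPM, and 36 of its 71 UMIs came from 1 cell, the one with 5 IFNL1 UMIs. TMEM173 was 2.29-fold higher with 30 UMIs. STAT2 (1.13-fold, log2 interval -0.38 to 0.68), STAT3 (0.71-fold, -1.12 to 0.07) and IRF9 (1.05-fold, -0.93 to 0.93) had intervals that included a ratio of 1, and IRF7 was 1.46-fold higher. In the 28 cells with a single IFNL1 UMI, IFIH1 was at 51.2 CPM (1.14-fold) and DDX58 at 27.7 CPM (0.85-fold), both with intervals that included a ratio of 1.

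The cell with 52 IFNL1 UMIs differed from most others. It held the highest IFIH1 count of all 520 cells, 39 UMIs, with 20 IRF1, 10 TMEM173 and 8 DDX58 UMIs, but 0 UMIs of STAT2, STAT3 and IRF9 and 1 of IRF7 among 49307 in total. It also held 200 UMIs of IFIT2, an RNA-binding interferon-induced gene, 169 of the chemokine gene CCL5, 6 of ISG15 and 0.62% of mitochondrially encoded UMIs, where the library median was 6.55%. The other cells in the group of 7 had 6.66% to 11.1% mitochondrially encoded UMIs and 155 to 685 ISG15 UMIs. Cells under 2% numbered 51 in this library and 6, 6 and 11 in the other 3 (both at 24 h, then DMSO at 72 h). CCL5 and ISG15 in these cells were singled out after their values were seen.

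Over all 35 cells with an IFNL1 UMI, the 6 genes with the highest ratio to the 485 cells without were IFIT2 (17.5-fold), the chemokine gene CXCL10 (5.91-fold), the antiviral effector gene IFIT3 (4.28-fold), the prostaglandin receptor gene PTGER4 (3.68-fold), the antiviral enzyme gene RSAD2 (3.18-fold) and RARRES1 (2.58-fold), out of 10332 genes with a UMI in at least 10% of thinned cells. IFIT2, IFIT3 and RSAD2 belong to the interferon-induced list. IFIH1 ranked 40, IRF1 205 and DDX58 340 in the same order. The IFIT2 UMIs of the 7 high cells were 200, 1, 337, 107, 173, 65 and 0, so that 2 of the 7 had nearly none. CXCL10 rested on 1 cell, which held 299 of its 308 UMIs in the group of 7. The same 7 cells held 217 of the 252 IFIT3 UMIs, 84 of the 98 PTGER4 UMIs and 88 of the 109 RSAD2 UMIs of the 35 cells. In the 28 cells with a single IFNL1 UMI, IFIT3 (14.5 against 19.6 CPM), PTGER4 (5.78 against 8.86), RSAD2 (8.67 against 11.4) and CXCL10 (17.8 against 19.8) had intervals that included a ratio of 1 to the cells without IFNL1, and IFIT2 was 1.85-fold higher. RARRES1 was led by the cells with a single IFNL1 UMI, at 154 CPM against 50.2 CPM.

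Of the RNA sensor genes, IFIH1 was higher with paclitaxel at both times, and DDX58 was so at 72 h and just under the 1.5-fold line used here at 24 h. IFIH1 was at 3.83 CPM with DMSO (276 UMIs) and 10.4 with paclitaxel (576 UMIs) at 24 h, and 7.62 with DMSO (375 UMIs) and 48.6 with paclitaxel (1693 UMIs) at 72 h. All neighbouring levels differed by more than their counting intervals. Paclitaxel against DMSO gave log2 ratios of 1.44 (95% interval 1.23 to 1.65) at 24 h and 2.67 (2.51 to 2.84) at 72 h. IFIH1 UMIs were found in 6.20%, 17.7%, 13.7% and 50.3% of cells thinned to an equal depth, in the same order. The gene lies on the minus strand of chromosome 2 from 162267079 to 162318703.

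The IFIH1 promoter is printed because it was the only member besides IFNL1, among 7 with a RefSeq promoter, to hold ISRE-type matches. There were 3, beginning 159, 153 and 21 bases before the start; the first 2 overlap and are in capitals, and the end of the printed stretch splits the last. The bases are from chr2:162318704-162318934 (GRCh38.p14, minus strand, RefSeq):
IFIH1: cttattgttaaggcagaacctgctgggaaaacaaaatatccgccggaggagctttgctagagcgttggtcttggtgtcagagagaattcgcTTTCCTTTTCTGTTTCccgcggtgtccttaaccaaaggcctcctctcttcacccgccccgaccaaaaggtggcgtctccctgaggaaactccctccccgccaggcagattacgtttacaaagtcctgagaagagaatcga

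DDX58 was at 13.0 CPM with DMSO and 18.9 with paclitaxel at 24 h, and 16.3 with DMSO and 33.6 with paclitaxel at 72 h, from 803 to 1170 UMIs. The log2 ratio of paclitaxel to DMSO was 0.54 (0.41 to 0.67) at 24 h and 1.04 (0.91 to 1.17) at 72 h. With DMSO at 24 h, 20.9% of thinned cells had a DDX58 UMI, and 40.1% did with paclitaxel at 72 h. The gene lies on chromosome 9 from 32455705 to 32526324.

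TMEM173, the STING adaptor gene, differed between the control libraries by no less than between drug and solvent. Its levels were 8.01 CPM with DMSO and 13.6 with paclitaxel at 24 h, and 15.2 with DMSO and 22.9 with paclitaxel at 72 h, and the middle pair overlapped in their counting intervals. The log2 ratio to DMSO was 0.77 (0.61 to 0.92) at 24 h and 0.60 (0.45 to 0.74) at 72 h, while DMSO at 72 h stood 0.92 (0.76 to 1.08) above DMSO at 24 h. In cells without an MKI67 or TOP2A UMI the 72 h ratio was 0.03 (-0.27 to 0.33). The gene lies on chromosome 5 from 139475534 to 139482935.

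**Figure D2:**
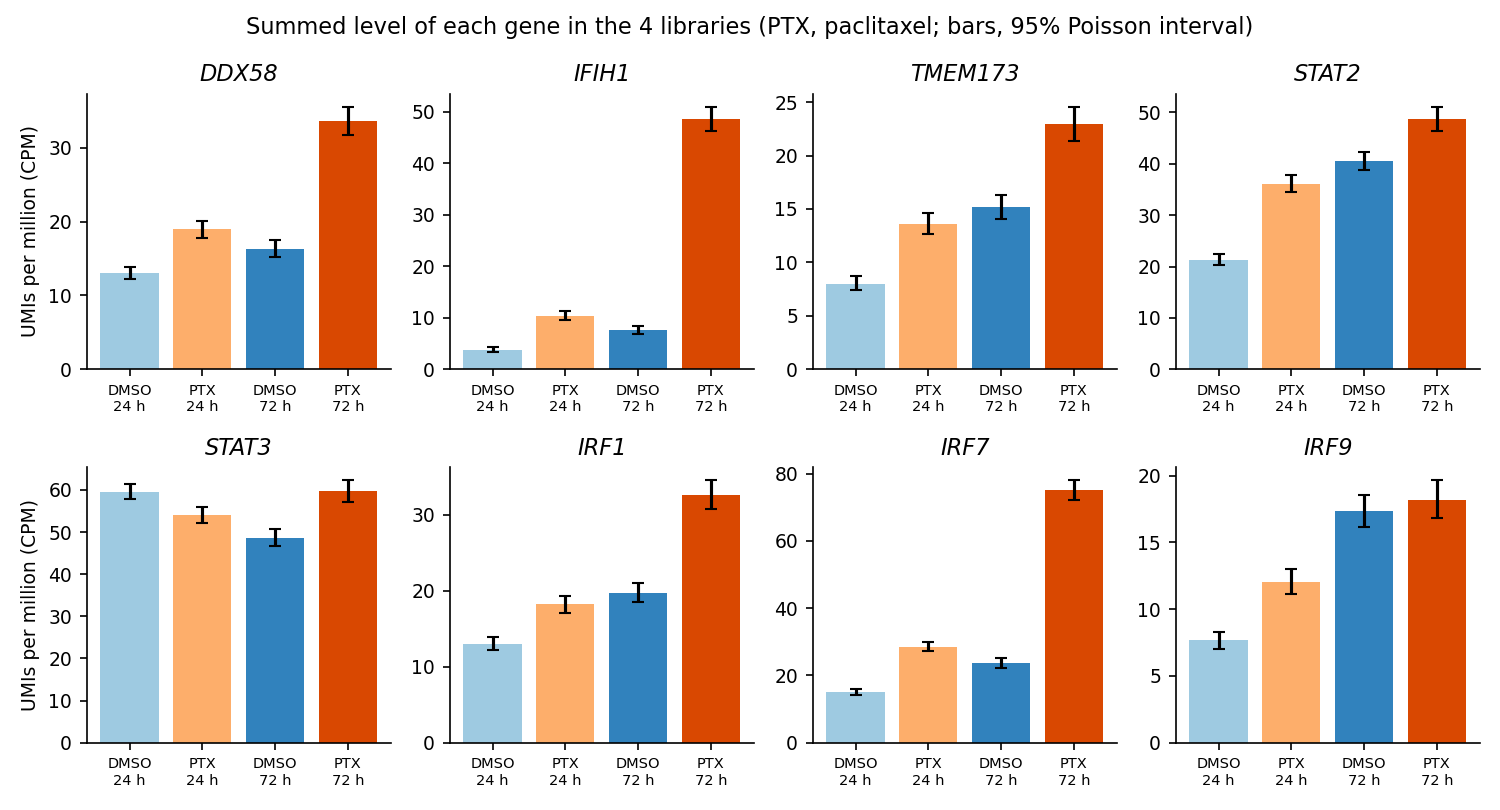
Bars give the level of each gene in each library as CPM of summed UMIs (y axis from 0, its own scale per gene), with exact 95% Poisson intervals; PTX is paclitaxel. IFIH1 and IRF7 have their highest bars in paclitaxel at 72 h, at 48.6 and 75.1 CPM, whereas STAT3 lies between 48.7 and 59.7 CPM in all 4 libraries.

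STAT2 was higher with paclitaxel at 24 h, and at 72 h its level in the control was closer to that with the drug. It was at 21.3 CPM with DMSO and 36.1 with paclitaxel at 24 h, and 40.5 with DMSO and 48.8 with paclitaxel at 72 h. The log2 ratio was 0.76 (0.66 to 0.86) at 24 h and 0.27 (0.17 to 0.36) at 72 h. The median log2 ratio of all genes was -0.13 at 24 h and 0.28 at 72 h, and relative to it STAT2 stood at 0.89 and -0.01, so its direction at 72 h depends on the scaling. STAT2 lies on chromosome 12 from 56341597 to 56360155 and overlaps the small nuclear RNA gene RNU7-40P.

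STAT3 varied least of the 8 genes measured in all libraries, by 1.23-fold between its lowest and highest level. It was at 59.6 CPM with DMSO and 54.1 with paclitaxel at 24 h, and 48.7 with DMSO and 59.7 with paclitaxel at 72 h. The log2 ratio to DMSO was -0.14 (-0.21 to -0.07) at 24 h and 0.29 (0.21 to 0.38) at 72 h, and relative to the median of all genes they were -0.01 and 0.01. The gene lies on chromosome 17 from 42313324 to 42388568.

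Of the 3 IRF genes, IRF7 was the one furthest above its control at 72 h. IRF7 was at 15.1 CPM with DMSO and 28.6 with paclitaxel at 24 h, and 23.7 with DMSO and 75.1 with paclitaxel at 72 h. The log2 ratios were 0.92 (0.81 to 1.03) at 24 h and 1.67 (1.57 to 1.77) at 72 h. It is encoded on chromosome 11 from 612553 to 615999. IRF7 UMIs were found in 24.8%, 39.5%, 34.6% and 63.6% of thinned cells in that order.

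IRF1 was at 13.0 CPM with DMSO and 18.2 with paclitaxel at 24 h, and 19.7 with DMSO and 32.6 with paclitaxel at 72 h, with log2 ratios of 0.48 (0.35 to 0.61) and 0.72 (0.60 to 0.85). In paclitaxel at 72 h, 15.7% of its UMIs lay in 5 cells, and 1 cell held 53. Without the 5 highest cells of each library the 72 h ratio was 0.56, under the 1.5-fold line. IRF1 lies on chromosome 5 from 132481609 to 132490798 and overlaps C5orf56 and AC116366.3 on the opposite strand, and the sources used here do not say whether the authors counted by strand.

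The promoter of IRF1 is printed because it holds an interferon-gamma activated site (GAS) type match, TTCNNNGAA, the kind of site that dimers of STAT proteins bind. Such letters were found in 7.66% of the 35116 promoters and in 9 of the 36 promoters of interferon-induced genes (25%). In IRF1 the match begins 124 bases before the start and is in capitals, in chr5:132490799-132491023 (GRCh38.p14, minus strand, RefSeq):
IRF1: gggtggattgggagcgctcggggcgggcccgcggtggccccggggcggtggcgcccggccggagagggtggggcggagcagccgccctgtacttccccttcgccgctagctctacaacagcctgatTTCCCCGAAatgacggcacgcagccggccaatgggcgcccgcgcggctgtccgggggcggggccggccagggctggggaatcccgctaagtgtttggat

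IRF9, the DNA-binding partner of STAT2, was above its control at 24 h, and at 72 h its counting interval included a ratio of 1. It was at 7.66 CPM with DMSO and 12.0 with paclitaxel at 24 h, and 17.3 with DMSO and 18.2 with paclitaxel at 72 h. The log2 ratio was 0.65 (0.49 to 0.82) at 24 h and 0.07 (-0.08 to 0.22) at 72 h, where the value relative to the median of all genes was -0.21 (-0.36 to -0.06). DMSO at 72 h stood 1.18 (1.02 to 1.33) above DMSO at 24 h. The IRF9 promoter holds a GAS-type match beginning 63 bases before the RefSeq start. The gene lies on chromosome 14 from 24161053 to 24166565 and overlaps AL136295.5 on the same strand, so their reads may not be told apart.

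A gene was counted as higher when its summed CPM differed by at least 1.5-fold, the mean of both libraries was at least 5 CPM and the counting interval excluded a ratio of 1; genes listed in both libraries with such a mean are called measured. All 8 members listed in every table passed the 5 CPM minimum in each comparison. IFIH1, at 3.83 CPM in DMSO at 24 h, did so only through the other library wherever that control was used. At 24 h, 5 of these 8 (IFIH1, IRF7, TMEM173, STAT2 and IRF9) were higher with paclitaxel and 0 lower, where 4.46% of 10074 genes were higher and 3.75% lower. After the median of all genes was subtracted, DDX58 and IRF1 joined them, making 7 of 8 where 6.68% of all genes were higher. The median log2 ratio of the 8 members was 0.71. Since the members were chosen with earlier results of these data known, counts above the share of all genes, here and below, are no independent evidence.

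At 72 h, 5 of the 8 (IFIH1, IRF7, DDX58, IRF1 and TMEM173) were higher and 0 lower, where 25.7% of 10471 genes were higher and 2.29% lower. After subtraction of the median only IFIH1 (2.39), IRF7 (1.39) and DDX58 (0.76) passed 1.5-fold, where 11.9% of all genes were higher, and edgeR's TMM scaling also left these 3. Without the 5 highest cells of each member, and without subtraction of the median, the same 3 were higher, where 25.6% of all genes were. The other genes kept all their cells in that share. TMEM173 was then at 0.51, on the scale without subtraction. The median of the 8 members was 0.66 against 0.28 for all genes.

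The controls themselves moved between the times. In DMSO at 72 h against DMSO at 24 h, 6 of 8 members (IRF9, IFIH1, STAT2, TMEM173, IRF7 and IRF1) were higher and 0 lower, where 7.51% of 10096 genes were higher and 23% lower; after subtraction of the median the count was again 6, where 13.4% of all genes were higher. IFIH1 was 0.99 (0.76 to 1.22) higher, IRF7 0.65 (0.53 to 0.77), IRF1 0.60 (0.47 to 0.73) and DDX58 0.32 (0.19 to 0.46). The median share of UMIs from ribosomal protein genes was 27.0% with DMSO and 33.1% with paclitaxel at 24 h, and 40.6% with DMSO and 27.5% with paclitaxel at 72 h, and its part in these ratios was not tested beyond the total without these genes. Cells without an MKI67 or TOP2A UMI numbered only 50 in DMSO at 24 h. Among such cells 3 members (IRF9, TMEM173 and IRF1) were higher, where 7.01% of all genes were. IFIH1 was at 0.88 in these cells, close to its 0.99, but with a wide interval (-0.12 to 2.06). Both this comparison and that of paclitaxel at 24 h use the DMSO 24 h library.

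Against DMSO at 24 h, paclitaxel at 72 h had 7 of 8 members higher, all but STAT3, where 18.7% of genes were higher. STAT2 was then at 1.19 (1.09 to 1.29) and IRF9 at 1.25 (1.08 to 1.41), both under the line against DMSO at 72 h. IFIH1 was 12.7-fold and IRF7 4.97-fold above DMSO at 24 h. Between the paclitaxel libraries, 6 of 8 members were higher at 72 h than at 24 h, where 14.9% of genes were, and STAT2 (0.43) and STAT3 (0.14) were not counted.

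**Figure D3:**
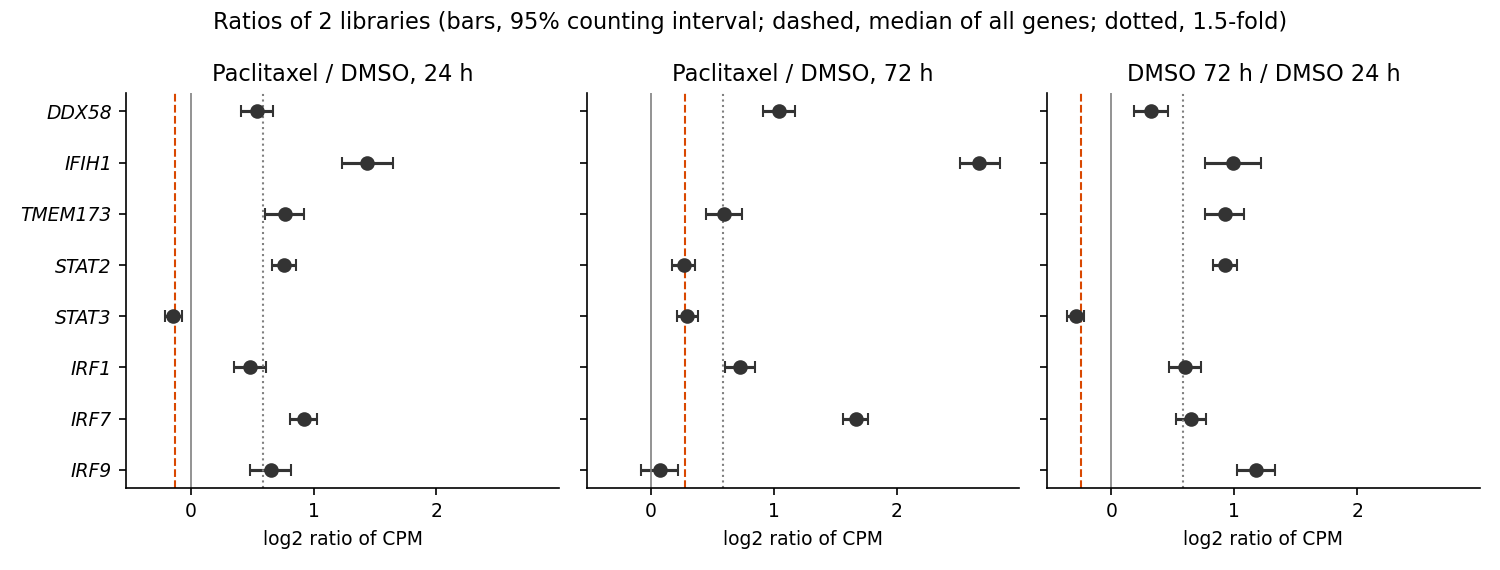
Points are log2 ratios of summed CPM between the libraries named above each panel, with 95% counting intervals; the dotted line is 1.5-fold and the dashed line the median of all genes. At 72 h the dashed line lies at 0.28 and IFIH1 at 2.67, and STAT2 and STAT3 lie on the dashed line.

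The 43 interferon-induced genes, a list that holds none of the 9 members, give the scale of the response they were set against. At 72 h, 34 of 34 measured list genes were higher with paclitaxel, with a median log2 ratio of 1.83, where 25.7% of all genes were higher. At 24 h it was 18 of 23 with a median of 0.87, where 4.46% of all genes were higher. The list was put together with earlier results of these libraries known, so its direction is no independent evidence. At 72 h some list genes, such as IFIT2, IFIT3 and OAS2, passed the 5 CPM minimum only through the paclitaxel library. Had they stayed at their control level they would not have been measured, so the count and the median lean towards higher genes. IFI27 was at 91.2 CPM in paclitaxel against 5.18 in DMSO at 72 h, IFIT2 at 44.5 against 1.40, IFIT3 at 25.1 against 1.20 and the RNA-activated synthetase gene OAS2 at 13.6 against 0.71.

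Per cell, IRF7 and STAT2 had the highest correlations with the interferon-induced transcripts among the members in both paclitaxel libraries, but not in both DMSO libraries. Each cell was thinned to 20000 UMIs, and the UMIs of a member were correlated over the cells of 1 library with the summed UMIs of the list; cells of a library are not replicates and no p is given. In paclitaxel at 72 h (481 cells) Spearman's rho was 0.40 for IRF7, rank 3 of 10298 genes outside the list, and 0.26 for STAT2, rank 54. The sensors were lower, with 0.14 for both IFIH1 (rank 681) and DDX58 (rank 728) and 0.03 for TMEM173 (rank 5151), where the median of all genes was 0.03. IRF9 was at 0.09, IRF1 at 0.06, STAT3 at 0.04 and IFNL1, with UMIs in 3.74% of cells, at 0.13. These values move with the depth used. After thinning to 10000 UMIs IRF7 was at 0.23 and STAT2 and DDX58 both at 0.21, and at full depth as CPM IRF7 was at 0.45, STAT2 at 0.38, DDX58 at 0.32, IFIH1 at 0.24 and IRF9 at 0.20. Such counts are sparse, and values this low are given as a description only.

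In paclitaxel at 24 h (750 cells) the order differed. STAT2 was at 0.29 (rank 48 of 9838), IRF7 at 0.27 (rank 70), IFIH1 at 0.21 (rank 160), IRF9 at 0.19 (rank 220), IRF1 at 0.16 (rank 357) and DDX58 at 0.10. In DMSO at 24 h no member reached 0.10, with DDX58 at 0.09, IFIH1 at 0.08, IRF7 at 0.06 and STAT2 at -0.01. In DMSO at 72 h only STAT2 did, at 0.15, and IRF7 was at 0.04, under IRF9, IRF1, TMEM173 and IFIH1, which lay between 0.085 and 0.098. The median thinned cell held 15 UMIs of the list with DMSO and 33 with paclitaxel at 24 h, and 25 and 86 UMIs at 72 h, and the part of this count in the values of rho was not tested. The list genes found, and so summed, numbered 32 with DMSO and 36 with paclitaxel at 24 h, and 39 and 42 at 72 h.

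**Figure D4:**
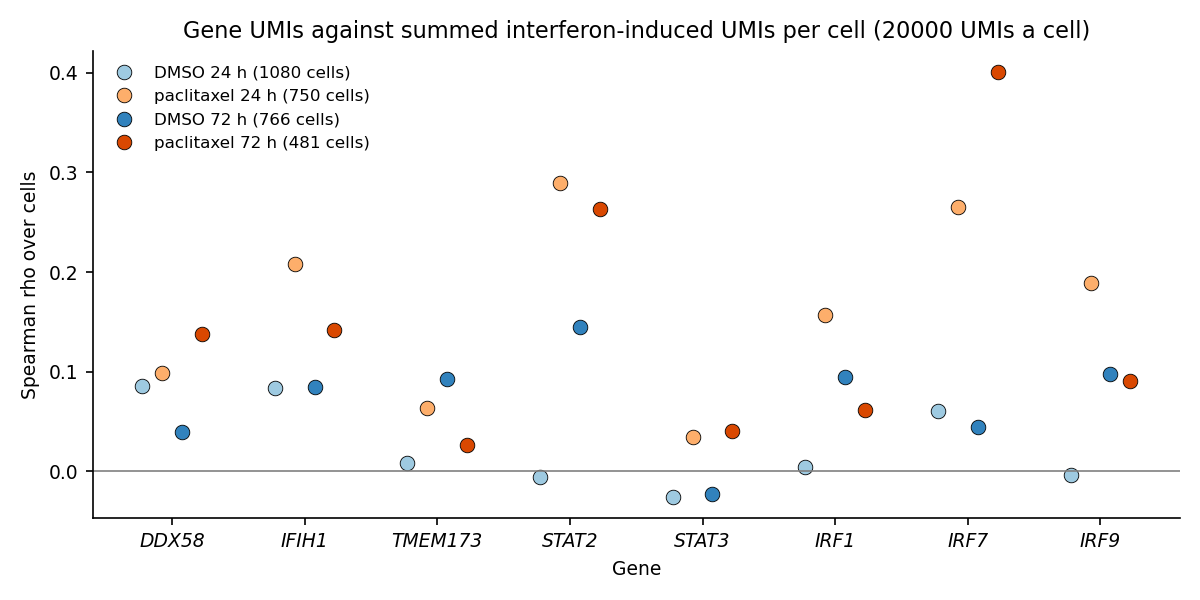
Points give Spearman's rho over the cells of 1 library between the UMIs of a gene and the summed UMIs of interferon-induced genes. The sum takes those of the 43 list genes that were found in that library. Each cell was thinned to 20000 UMIs, and colours are libraries. IRF7 in paclitaxel at 72 h stands highest at 0.40, and STAT3 is near 0 in all 4 libraries.

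The genes outside the list whose pattern over cells was most like it in paclitaxel at 72 h were HLA-B (rho 0.42), which encodes a class I antigen-presenting chain, SH3BGRL3 (0.41), IRF7 (0.40), the shared class I light chain gene B2M (0.40) and the myosin light chain gene MYL6 (0.39), over 481 cells. IRF7 was the only one of the 9 members among them.

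Dividing the cells of a library into 3 classes of equal size by their list UMIs showed the same relation as levels. In paclitaxel at 72 h IRF7 was at 34.7 CPM in the lower, 80.6 in the middle and 115.5 in the upper class, 3.33-fold from the lower to the upper. STAT2 was at 30.6, 43.8 and 59.3 CPM in these classes, a 1.94-fold difference, although its summed level was within 0.27 on the log2 scale of the control. DDX58 was at 22.2, 33.1 and 37.9 CPM.

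IFIH1 was high in all 3 classes. It was at 49.7, 47.5 and 68.3 CPM in the lower, middle and upper class of paclitaxel at 72 h, and even the lower class stood above the upper class of DMSO at 72 h, at 10.7 CPM. TMEM173 (22.8, 23.8 and 24.8 CPM), IRF1 (30.6, 29.4 and 33.2 CPM) and STAT3 (55.9, 56.3 and 63.4 CPM) had overlapping intervals in the 3 classes. IFNL1 had 1, 6 and 46 thinned UMIs in the lower, middle and upper class, but only 18 of the 481 cells held any, so these counts rest on few cells.

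At 24 h with paclitaxel the differences between classes were wider for some members. IFIH1 was at 5.00, 10.0 and 18.0 CPM, a 3.60-fold difference against 1.38-fold at 72 h. IRF9 was at 6.20, 16.4 and 20.4 CPM (3.29-fold against 1.59-fold) and IRF1 at 13.2, 17.4 and 27.6 CPM (2.09-fold against 1.09-fold). The differences between the times were not tested. In DMSO at 24 h IFIH1 was 2.40-fold, DDX58 1.58-fold and IRF7 1.34-fold higher in the upper than in the lower class, with intervals that excluded a ratio of 1. STAT2, IRF1, IRF9 and TMEM173 had ratios between 0.98 and 1.09 there, with intervals that included 1. The DMSO 72 h library differed. IFIH1 (1.77-fold), IRF9 (1.61-fold), TMEM173 (1.57-fold), STAT2 (1.40-fold) and IRF1 (1.39-fold) were higher in its upper class, with intervals that excluded 1. Those of IRF7 (1.29-fold), DDX58 (1.24-fold) and STAT3 (1.02-fold) included 1.

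**Figure D5:**
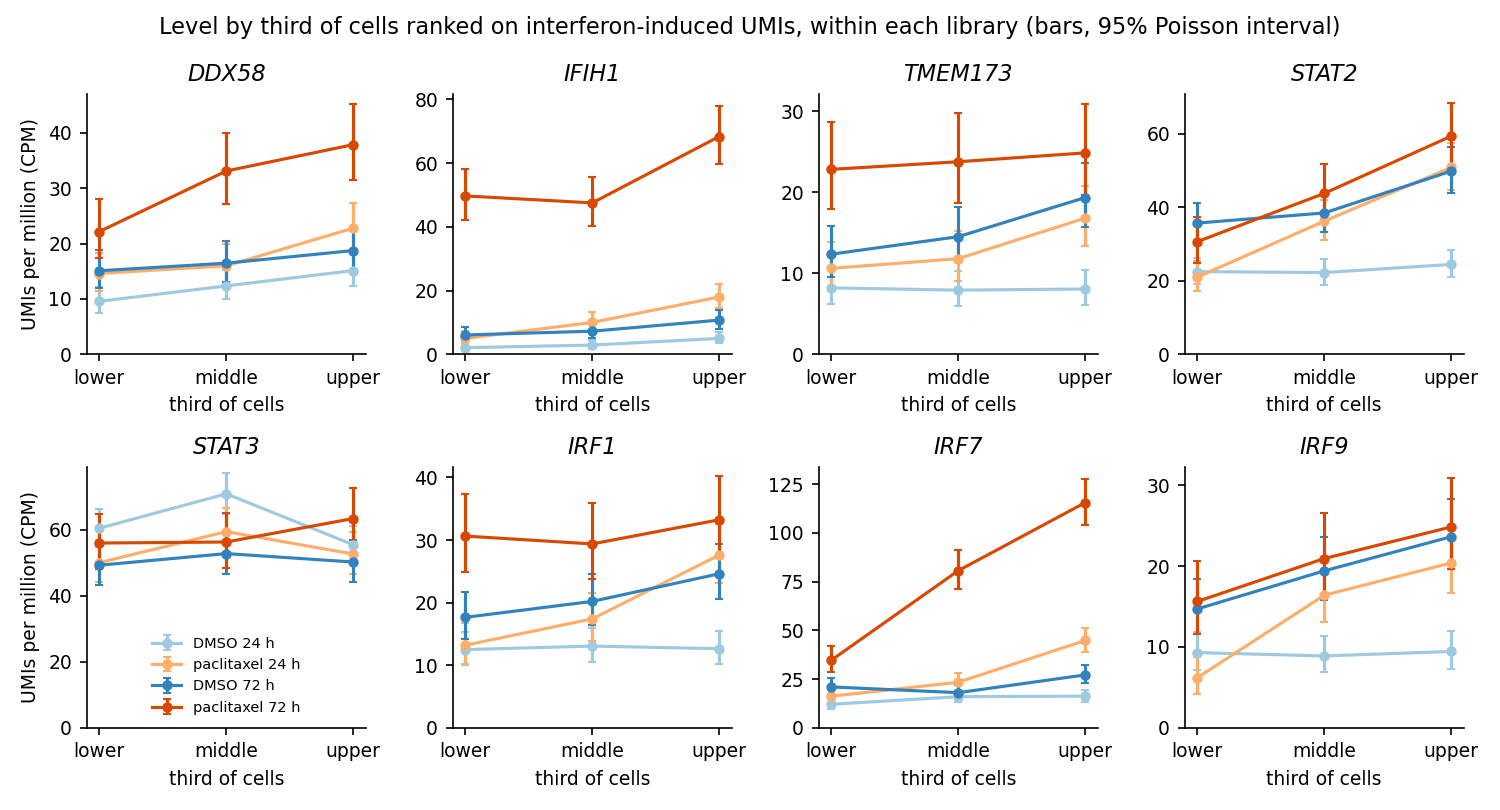
For each gene and library, points are CPM in the lower, middle and upper class of cells ranked on their interferon-induced UMIs, with 95% Poisson intervals; y axes start at 0 and differ between genes. In paclitaxel at 72 h IRF7 goes from 34.7 to 115.5 CPM, while IFIH1 is at 49.7 CPM already in the lower class.

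Cells with DDX58 transcripts held IFIH1 transcripts no more often than the others in paclitaxel at 72 h, within counting error. IFIH1 was found in 97 of 193 thinned cells with a DDX58 UMI (50.3%, 43.0 to 57.5) and in 145 of 288 cells without one (50.3%, 44.4 to 56.3). In paclitaxel at 24 h the shares were 25.1% (19.5 to 31.5) and 14.8% (11.9 to 18.1). For STAT2 and IRF9, partners in 1 complex, 34.2% (28.5 to 40.4) of STAT2-positive cells held IRF9 at 72 h, and 26.8% (21.1 to 33.1) of STAT2-negative cells did. These intervals overlap, and the difference was not tested. Cells with 2 or more IFIH1 UMIs had a median of 99 list UMIs and cells with 0 had 80, and for IRF7 these medians were 119 and 67.

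The other genes of the pathway, grouped in lists by function, differed mostly by less than 1.5-fold. Their counts at 72 h stand against 25.7% of all genes higher, or 11.9% after subtraction of the median, and those at 24 h against 4.46% higher and 3.75% lower. The lists are short, and nothing is read from their counts beyond these shares. Of 7 measured receptor and kinase genes, 1 was higher with paclitaxel at 72 h, IFNGR1, a chain of the interferon-gamma receptor, at 38.7 against 16.3 CPM. The IFNL1 receptor genes IL10RB (45.6 against 35.4 CPM) and IFNLR1 (5.68 against 3.39 CPM, under the minimum and singled out after its values were seen) were not counted. IFNAR1 and IFNGR2 were not counted either, at log2 ratios of 0.51 and 0.22.

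Of 11 measured genes around the RNA sensors, 3 were higher and 0 lower at 72 h, close to the 25.7% of all genes. They were TICAM1, the adaptor of TLR3, at 44.2 against 17.3 CPM, the RNA-activated kinase gene EIF2AK2 at 178 against 84.4 CPM, and TRAF6 at 11.9 against 7.09 CPM. MAVS, through which DDX58 and IFIH1 signal and which was singled out after its values were seen, was at 46.1 against 60.7 CPM, a log2 ratio of -0.40. After subtraction of the median TICAM1 and EIF2AK2 were higher and MAVS lower, where 887 of 10471 genes were lower. Of 5 measured DNA sensing genes, 2 were higher, where 25.7% of all genes were, and 1 after subtraction of the median: MB21D1, the cGAS gene, at 11.6 against 5.04 CPM, and BANF1, which encodes a DNA-binding protein of the nuclear envelope, at 144 against 81.1 CPM. Both had been higher in DMSO at 24 h, at 8.61 and 147 CPM, than in DMSO at 72 h.

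The other measured STAT gene, STAT6, was at 25.6 against 34.0 CPM at 72 h (log2 ratio -0.41) and was not counted. Among other IRF genes, IRF2 was higher, at 18.9 against 10.2 CPM, and IRF3, the factor that the sensors activate, was at 68.5 against 58.1 CPM and was not counted. Of 8 measured feedback genes, 3 were higher, where 25.7% of all genes were. They were SOCS1 at 9.21 against 1.46 CPM, SOCS3 at 21.7 against 13.7 CPM and USP18 at 57.3 against 21.6 CPM. USP18 also belongs to the interferon-induced list. SOCS1 passed the 5 CPM minimum only through the paclitaxel library. Had SOCS1 stayed at its control level it would not have been measured. Of 5 measured genes of the IL6 family that act through STAT3, IL6R, LIF and OSMR were higher, with LIF at 36.3 against 16.1 CPM. After subtraction of the median 1 of these 5 and 2 of the feedback genes were higher, where 11.9% of all genes were. STAT6 was then lower, where 887 of 10471 genes were. At 24 h, where 4.46% of all genes were higher and 3.75% lower, 0 of 11 RNA sensing and 0 of 5 DNA sensing genes were higher, and 1 of 7 receptor and kinase genes, 1 of 6 feedback genes and 1 of 5 genes of the IL6 family were. In each of the last 2 lists 1 gene was lower at 24 h.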

How the data were processed

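The deposited files are raw counts of UMIs per gene symbol and cell barcode, 1 table per library, made from 10x Chromium libraries per the labels' protocols; the submitters' processing notes name Cell Ranger 2.0 and GRCh38. Every gene listed in a table had a UMI in at least 1% of its cells. Barcodes with at least 500 genes and under 20% mitochondrially encoded UMIs were kept (3180 of 3194), and no doublets were removed. UMIs were summed over cells and divided by the library total. Ratios carry exact 95% intervals (scipy 1.17.1); with 1 library per group there is no test. The sources used here do not say how many cultures a library drew on. Cells were thinned to 20000 UMIs with a fixed seed, and ratios and intervals were tested on simulated Poisson counts. Such counts hold only the counting error that the intervals assume, so extra spread between cells or cultures was not covered. TMM factors came from edgeR 4.0.16. Alternatives covered scaling, cell filters, cell subsets, count minimums and thinning depth.

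Named are the 9 members, up to 4 genes per list with the largest 72 h ratio, the 6 genes most correlated with the interferon-induced list, and the 6 with the highest ratio in IFNL1-positive cells; some of these genes, and the counts of the list of other IRF genes, are not reported here. Members and lists were chosen with earlier results of these data known. Promoters came from RefSeq (GRCh38.p14), which held 7 of the 9 members, and coordinates from GENCODE 29.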

Additional observations from a re-analysis of the deposited data

Results flagged for a closer look

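STAT3 moved in opposite directions at the times studied. The log2 ratio of paclitaxel to DMSO was -0.14 at 24 h and 0.29 at 72 h, and each counting interval excluded 0. The difference was not tested, since each time has 1 library per treatment, and both values lay at the median of all genes in their comparison (-0.13 and 0.28).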

How the results depend on the processing

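No paired analysis was possible because each group is 1 library and the labels carry no replicate numbers. Of the counts of members higher with paclitaxel, the 24 h count stayed between 4 and 7 in every alternative but a minimum mean of 50 CPM. In those alternatives 4.44% to 6.91% of all genes were higher. The minimum of 50 CPM left 1 member and 0 higher at 24 h, 72 h and between the controls. The 72 h count of 5 was 3 with TMM factors, where 11.6% of all genes were higher. It was also 3 with a total without ribosomal protein and mitochondrial genes (11.8%) and after subtraction of the median (11.9%). Without the 5 highest cells of each member it was 3 as well, where 25.6% of all genes were higher, the other genes with all cells kept. The last 2 alternatives, and those without cells above 100000 UMIs or under 2% mitochondrial UMIs, were added after the data had been seen. The control count of 6 was 3 in cells without an MKI67 or TOP2A UMI, where 7.01% of all genes were higher. Cells with IFNL1 numbered 7 at 2 or more UMIs, 18 after thinning and 22 without cells above 100000 UMIs, against 35. Members with a rho of at least 0.1 numbered 4 in paclitaxel at 72 h and 5 at 24 h, IFNL1 aside, and stayed within 1.5 times in each alternative. In DMSO at 24 h the count of 0 was 1 without the 4 most abundant list genes and 1 at full depth. It was 3 in cells without MKI67 or TOP2A UMIs. In DMSO at 72 h the count of 1 was 3, 7 and 5 in the same alternatives and 0 at 10000 UMIs. The share of all genes past 0.1 was not worked out for any setting, so nothing is read from these counts. With paclitaxel, 17.6% of ranked genes lay above IRF9 (0.09) and 7.06% above DDX58 (0.14) at 72 h, and 9.68% above DDX58 (0.10) at 24 h. With DMSO, 4.06% lay above DDX58 (0.09) at 24 h and 7.97% above IRF9 (0.098) at 72 h. Of 224 alternative ratios of single members, 199 kept their call or lack of one, 9 gained a call, 16 lost it, and 0 calls reversed. Of the 16, IFIH1 between the controls in cells without MKI67 or TOP2A UMIs was still past 1.5-fold, at 0.88, and lost its call to a wide interval. Ratios without a call could change sign and still be counted as kept. With TMM factors at 72 h, IRF9 went from 0.07 to -0.21 (-0.36 to -0.06) and STAT2 from 0.27 to -0.02 (-0.11 to 0.08). Of 132 alternative values of rho, 16 moved by 0.1 or more. At this depth a cell without an IFNL1 UMI cannot be read as one without expression.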
